A study of Mus musculus with 8 samples.

Results

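The Wnt pathway was described here through its ligands, its receptors and the proteins that carry the signal to beta-catenin and its target genes, in AML12 cells cultured with or without irisin. The genes were chosen by name. They were the mouse genes for Wnt ligands and Frizzled receptors, the Dkk and Sfrp antagonists, the Dishevelled adaptors, Lrp5 and Lrp6, Lgr4, Lgr5, Rnf43 and Znrf3, Ctnnb1, Apc, Axin1, Axin2 and Gsk3b, the TCF and LEF factors, and Sp5, Nkd1 and Tbx3. Of the 21608 genes with a named probe, 58 were members, measured by 75 probes. AML12 is an immortalised mouse hepatocyte line derived from a mouse carrying a human TGF-alpha transgene, and all 8 samples came from this 1 line. The controls were 4 samples cultured without irisin, and the treated group was 4 samples given 0.5 µg/ml irisin, the hormone released from Fndc5, for 24 hr in the same serum-containing medium. Each sample was hybridised to a 1-colour Agilent array. The labels number the replicates without saying whether they were separate cultures, so the p-values measure only the spread between these samples.

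In the canonical pathway a secreted Wnt binds a Frizzled receptor together with Lrp5 or Lrp6. Dishevelled then holds back the destruction complex of Axin, Apc and Gsk3b, so that beta-catenin builds up and acts in the nucleus with TCF and LEF factors. In the liver this signal is known for setting the gene program of hepatocytes around the central vein, with Glul and Cyp2e1 among its best known outputs, and for growth of the tissue. Lgr4 and Lgr5 bind R-spondins, which keep Rnf43 and Znrf3 from removing Frizzled from the cell surface.

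The core letters that TCF and LEF factors recognise, CTTTGAT or CTTTGAA on either strand, were looked for close to the start of these genes. RefSeq promoter windows of 250 bases before and 50 bases after the start (GRCm38.p6) were found for 39 of the 58 genes. The core was present in a window of 4 of these 39 genes (10.3%) and of 9.88% of the 27025 genes in the table. The members thus held it about as often as genes at large. Both motif spellings were counted together, and a match is only a match of letters. The 250 bases before the start are shown for these 4 genes, with the core in capitals, because they are the members whose windows hold it. The core began 51 bases before the start in Wnt11, where it lay on the reverse strand and reads ATCAAAG, 71 bases before it in Wnt5b, 104 in Sp5 and 117 in Dkk1. Wnt11 and Wnt5b also have windows at other starts, which hold no match and are not shown. Dvl3 is shown as the member called lower under quantile normalization both with and without normexp background correction, and its window holds no match. Each sequence runs 5′ to 3′ on the strand of the gene.
Wnt11, chr7:98834862-98835111, forward strand: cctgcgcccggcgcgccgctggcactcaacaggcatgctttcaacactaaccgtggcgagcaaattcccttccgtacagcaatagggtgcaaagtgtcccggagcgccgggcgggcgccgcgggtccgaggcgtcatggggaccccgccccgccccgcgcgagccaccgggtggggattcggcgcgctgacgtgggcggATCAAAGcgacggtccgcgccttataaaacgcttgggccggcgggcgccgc
Wnt5b, chr6:119449387-119449636, reverse strand: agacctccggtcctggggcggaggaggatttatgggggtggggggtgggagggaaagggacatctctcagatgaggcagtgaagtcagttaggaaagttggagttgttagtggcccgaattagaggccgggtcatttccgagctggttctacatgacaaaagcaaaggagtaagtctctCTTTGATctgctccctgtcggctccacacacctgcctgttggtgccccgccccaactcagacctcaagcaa
Sp5, chr2:70474673-70474922, forward strand: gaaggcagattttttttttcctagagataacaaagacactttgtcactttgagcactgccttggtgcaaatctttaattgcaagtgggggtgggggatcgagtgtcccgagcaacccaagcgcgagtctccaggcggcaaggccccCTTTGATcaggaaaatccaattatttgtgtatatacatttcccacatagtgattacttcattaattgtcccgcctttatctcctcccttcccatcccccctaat
Dkk1, chr19:30549497-30549746, reverse strand: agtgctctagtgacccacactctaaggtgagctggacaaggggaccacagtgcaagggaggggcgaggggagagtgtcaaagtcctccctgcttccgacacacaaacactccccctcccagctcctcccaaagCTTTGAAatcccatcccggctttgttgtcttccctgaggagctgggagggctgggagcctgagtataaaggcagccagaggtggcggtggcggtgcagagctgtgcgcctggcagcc
Dvl3, chr16:20516736-20516985, forward strand: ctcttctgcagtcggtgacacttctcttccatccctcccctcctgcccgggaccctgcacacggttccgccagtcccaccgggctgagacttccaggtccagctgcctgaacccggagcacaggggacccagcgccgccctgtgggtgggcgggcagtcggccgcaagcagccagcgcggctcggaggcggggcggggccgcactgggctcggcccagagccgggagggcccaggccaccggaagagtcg

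A probe was tested if every array of a group, either the 4 controls or the 4 irisin arrays, marked it as well above background. This held for 37 of the 58 genes, 36 of them on all 8 arrays. The other 21 genes were not tested. Of these, 16 were well above background on no array: the ligands Wnt2b, Wnt3, Wnt3a, Wnt8a and Wnt8b, the receptor Fzd3, the antagonists Dkk1, Dkk2, Dkk3, Dkk4, Sfrp1 and Sfrp2, the stem cell receptor Lgr5, the nuclear factor Lef1, and the target genes Nkd1 and Sp5. Wnt2 and Wnt9b were above it on 1 control array each, Tbx3 on 1 irisin array, Sfrp4 on 2 irisin arrays and Fzd10 on 3 irisin arrays. Thus the measured pathway consisted of most Frizzled receptors, the co-receptors, the adaptors, the destruction complex and 12 of 19 ligands. It also held Lgr4, Rnf43 and Znrf3, 3 of 4 TCF and LEF factors and 1 of 8 Dkk and Sfrp antagonists. None of the 3 listed target genes was tested, while Axin2, a feedback target counted with the destruction complex, was.

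**Figure D1:**
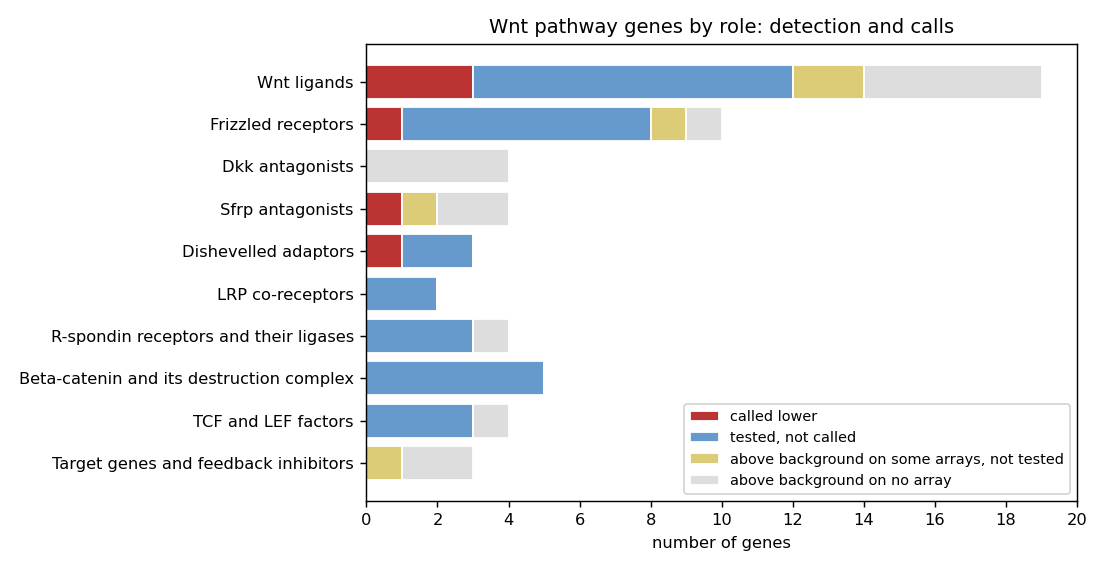
Number of Wnt pathway genes by role, split by detection and call (x axis, number of genes; each bar segment is a class of genes). All 5 genes of beta-catenin and its destruction complex were tested, and the 3 target genes and the 4 Dkk genes were not.

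Levels below are log2 signals relative to the 75th percentile of the same array, so a negative level only lies below that percentile. They are given in the order of the replicate numbers, and changes are irisin minus control. A gene was called when it changed at least 1.5-fold with an adjusted p under 0.05 (limma, Benjamini-Hochberg over all tested probes, n = 4 arrays in each group). Of the 37 tested members, 6 were called lower (16.2%), beside 10.2% of all 14308 tested genes, and 0 were called higher, beside 0.531%. The per-probe test named in the study's methods gave the same 6 and 0, beside 9.41% and 0.335% of all tested genes. The 6 were the antagonist Sfrp5, the adaptor Dvl3, the ligands Wnt11, Wnt5a and Wnt16, and the receptor Fzd5. At an unadjusted p under 0.05, 15 members were lower and 3 higher, beside 23.6% and 5.94% of all tested genes. The arrays of the groups did not overlap for 12 members lower with irisin (32.4%, beside 19.7% of all tested genes) and 2 higher (5.41%, beside 4.16%). The median change of the tested members was -0.14, and that of all tested genes was -0.06.

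The calls moved with the brightness of the probes. Among the 3365 genes in the 3 dimmest of 10 equal classes of tested probes, 37.2% were called lower, against 1.89% of the other 10943, and 0.594% and 0.512% were called higher. In those 3 classes lay 14 tested members with 5 of the calls, Sfrp5, Wnt11, Wnt5a, Fzd5 and Wnt16. The other 23 members held 1 call, Dvl3. The 75th percentile itself differed between the groups (372 to 534 signal units in controls, 682 to 850 with irisin), while probes above background on no array had a median difference of -0.76 after scaling to it and of -0.02 without scaling. With quantile normalization, which gives every array the same distribution of signals, 2 members remained called lower, Dvl3 and Sfrp5, beside 3.82% of all tested genes, and Lgr4 was called higher, beside 2.00%. Cyclic loess gave the same 3 calls, beside 3.41% lower and 2.14% higher. After normexp background correction, which models the background of the raw spot signals, 2 members were called lower with 75th percentile scaling, Dvl3 and Wnt5a, and 1 with quantile normalization, Dvl3, beside 5.51% and 0.175% of all tested genes. Under these settings 0 members were called higher, beside 0.154% and 0.147%. Spots of very high local background were left out of these fits, and with them kept 0 members were called, as were 0 of all 14308 genes (0.0%), so that count says nothing about the members. Each group lay on 1 slide of its own, so slide and treatment cannot be told apart. In a whole culture, fewer cells that express a gene and less RNA per cell cannot be told apart either.

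Other settings gave other counts. Spike-in scaling and no scaling moved the median of all tested genes to 0.51 and 0.67, so values under them are to be read against those medians. Under spike-in scaling 8 members were called higher and 2 lower, beside 33.4% and 1.29% of all tested genes, and without scaling 20 higher and 0 lower, beside 66.8% and 0.566%. With no filter on dim probes 17 of 58 members were called lower and 0 higher, beside 29.0% and 0.389%. At an adjusted p under 0.05 with no limit of size 12 members were lower and 3 higher, beside 17.9% and 2.65%, and at 2-fold 2 were lower and 0 higher, beside 2.68% and 0.0419%.

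**Figure D2:**
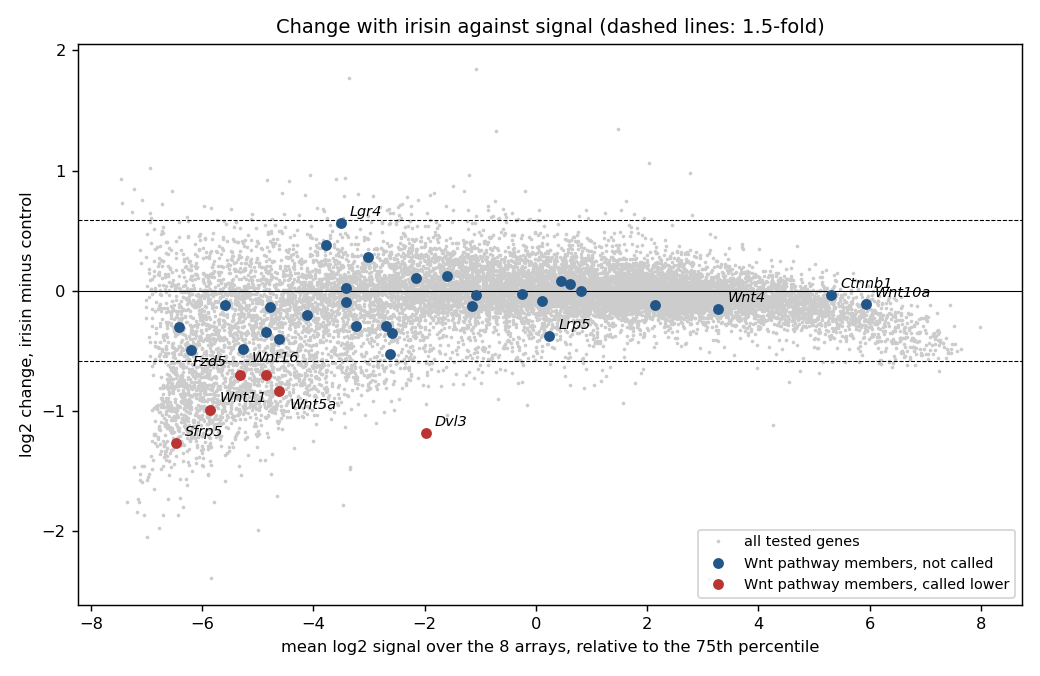
Change with irisin (y axis, log2) against mean signal over the 8 arrays (x axis, log2 relative to the 75th percentile) for all tested genes in grey and the 37 tested Wnt pathway genes in colour. 5 of the 6 members called lower sit among the dim probes at the left, where the grey cloud also falls, and Dvl3 lies apart from its neighbours at -1.18.

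As a check of the cells, all 10 hepatocyte markers, Alb, Ttr and Hnf4a among them, were above background on all 8 arrays. Of 5 epithelial markers Krt8, Krt18 and Cdh1 were above background on all 8 arrays, Epcam on some of them and Cldn1 on none. The signal summed over all 5 was 235 to 274 times the 75th percentile in controls and 181 to 222 with irisin, which did not overlap. Of 5 cholangiocyte or progenitor markers Krt19, Krt7, Sox9 and Spp1 were above background on all 8 arrays. The signal summed over all 5, with Epcam the other, was 55.3 to 61.9 in controls and 57.9 to 60.9 with irisin. Of 8 stellate or fibroblast markers 7 were above background on no array and Col1a1 was on all. Of 7 endothelial markers Pecam1 and Kdr were above background on all 8 arrays, while Cdh5, Tek, Lyve1 and Vwf were on none. Pecam1 was called lower, and the summed endothelial signal was 0.706 to 0.794 times the 75th percentile in controls and 0.417 to 0.588 with irisin. Of 7 macrophage or leukocyte markers Cd68, Csf1r and Marco were above background on all 8 arrays and C1qa on none, and Marco was called lower. The signal summed over all 7 was 0.557 to 0.662 in controls and 0.467 to 0.557 with irisin. The part of all these marker genes in the changes of the Wnt genes was not tested.

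Among the ligands, all 12 tested genes had a change below 0, with a median of -0.37, while 64.0% of all tested genes were below 0. Of the 12, 3 were called lower (25.0%), beside 10.2% of all tested genes. All 3 were among the 5 ligands in the 3 dimmest classes, where 37.2% of all genes were called lower. Under quantile normalization 9 of the 12 were below 0, beside 48.9% of all tested genes. Without scaling 2 of the 12 were below 0 and 12 were below the median of all genes. Normexp with all spots left 3 of the 12 below 0, and 11 without spots of high background, beside 44.9% and 69.1% of all tested genes. Wnt11, a ligand mostly known for beta-catenin-independent signaling, stood at -5.74, -5.23, -5.44 and -5.02 on the control arrays and at -6.56, -6.28, -6.30 and -6.23 on the irisin arrays. Every irisin array was below every control array, and Wnt11 fell by 0.99 on the log2 scale (SE 0.15, adjusted p = 0.000708). Wnt5a, the prototype of that branch, was at -4.04, -4.50, -4.41 and -3.84 in controls and at -4.98, -5.00, -5.14 and -4.99 with irisin. The groups did not overlap, the controls were the more spread of the groups, and the change was -0.83 (SE 0.14, adjusted p = 0.0014). Wnt16 was at -4.31, -4.58, -4.55 and -4.59 and at -5.34, -5.30, -5.24 and -4.94, again without overlap, with a change of -0.70 (SE 0.11, adjusted p = 0.000966). Under quantile normalization these 3 changes were -0.53, -0.56 and -0.38, all under 1.5-fold, with adjusted p of 0.0329, 0.0222 and 0.0313. After normexp with quantile normalization they were -0.06, -0.18 and -0.10, with adjusted p of 0.324, 0.0679 and 0.195. Without any scaling between arrays, Wnt16 was at 0.04.

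The next ligands changed less than 1.5-fold. Wnt1, a canonical ligand, was at -2.51, -2.41, -2.22 and -2.33 in controls and at -3.08, -2.69, -3.01 and -2.80 with irisin. The groups did not overlap and the change was -0.53 (SE 0.11, adjusted p = 0.00431). It was -0.47 under quantile normalization (adjusted p = 0.0160) and -0.24 after normexp with quantile normalization (adjusted p = 0.0422). Normexp with all spots put it at 0.05. With spike-in scaling it was at 0.05 and without scaling at 0.21, each below the median of all genes under that setting. Both settings move every change by the same amount, so this place only repeats that under 75th percentile scaling. Wnt5b, a close relative of Wnt5a, was at -4.28, -4.37, -4.50 and -4.48 and at -4.94, -4.72, -4.96 and -4.63, without overlap and with a change of -0.40 (SE 0.10, adjusted p = 0.0136). Wnt10b was at -5.63, -5.82, -6.27 and -6.12 and at -6.63, -6.53, -6.23 and -6.41. Here the least signal among the controls lay below the most with irisin, and the change was -0.49 (SE 0.14, adjusted p = 0.0296). Under quantile normalization Wnt5b was at -0.12 and Wnt10b at 0.03, with adjusted p of 0.408 and 0.919.

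Wnt7a and Wnt7b, a pair of related ligands, overlapped between the groups. Wnt7b was at -2.41, -2.18, -2.29 and -2.76 in controls and at -2.71, -2.76, -2.73 and -2.82 with irisin, a change of -0.35 (SE 0.12, adjusted p = 0.0593). Wnt7a was at -2.93, -2.97, -3.01 and -3.40 and at -3.37, -3.25, -3.45 and -3.42, a change of -0.29 (SE 0.11, adjusted p = 0.0874). In each of them control replicate 4 was the lowest control and lay within the range of the irisin arrays. The remaining ligands had changes of -0.15 for Wnt4, -0.13 for Wnt9a, -0.11 for Wnt10a and -0.10 for Wnt6, with adjusted p from 0.403 to 0.581. The 95% interval for Wnt10a was -0.33 to 0.10 and that for Wnt4 was -0.41 to 0.11, so a fall of 1.5-fold lay outside both.

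The direction of the Frizzled receptors depended on the processing, as did that of all tested genes. Of 8 tested receptors 4 were below 0 under 75th percentile scaling and 3 under quantile normalization, beside 64.0% and 48.9% of all tested genes. Without scaling none was below 0, beside 7.05%, and 4 of 8 were below the median of all genes, as under 75th percentile scaling. Normexp left 1 of 8 below 0 with all spots, beside 44.9%. Without spots of high background it left all 8 (6 below the median of all genes), beside 69.1%. When the latter was followed by quantile normalization 3 were below 0, beside 49.6%. Fzd5 was at -5.00, -4.95, -4.93 and -5.03 on the control arrays, which lay close together, and at -5.38, -5.69, -5.86 and -5.78 on the irisin arrays. The groups did not overlap and Fzd5 was called, with a change of -0.70 (SE 0.11, adjusted p = 0.00083). Under quantile normalization this probe was at -0.33 (adjusted p = 0.0586), and after normexp with quantile normalization at -0.07 (adjusted p = 0.321). The other tested Fzd5 probe was at 0.25 (adjusted p = 0.162), in the opposite direction, and passed both thresholds as higher under quantile normalization (0.68, adjusted p = 0.00593) and cyclic loess (0.69, adjusted p = 0.00487). After normexp with 75th percentile scaling it was at -0.36. The probes of Fzd5 thus disagreed, and Fzd5 was not called when the probes of a gene were averaged, which left 5 members called lower, beside 10.1% of all tested genes, and 0 higher, beside 0.496%. Fzd8 was at -4.76, -4.41, -4.77 and -4.79 and at -5.07, -4.90, -5.03 and -5.10. All irisin arrays were lower, control replicate 2 was the highest, and the change was -0.34 (SE 0.10, adjusted p = 0.0346), under 1.5-fold. Under quantile normalization Fzd8 was at -0.02.

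Fzd7 and Fzd6 had changes above 0. They turned to -0.08 and -0.11 after normexp background correction with 75th percentile scaling, where the median of all tested genes was -0.10. After normexp with quantile normalization they were at 0.20 and 0.26, with adjusted p of 0.0247 and 0.0325. Fzd7 was at -3.16, -3.08, -3.35 and -3.05 in controls and at -2.82, -2.90, -2.96 and -2.83 with irisin, with no overlap and a change of 0.28 (SE 0.09, adjusted p = 0.0407). Its other tested probe was at -0.24 (adjusted p = 0.368). Fzd6 was at -4.20, -3.84, -4.07 and -3.71 and at -3.67, -3.72, -3.40 and -3.52. The groups overlapped in 1 control array, and the change was 0.38 (SE 0.12, adjusted p = 0.0448). Quantile normalization gave 0.38 for Fzd7 and 0.54 for Fzd6, with adjusted p of 0.00922 and 0.0143, both under 1.5-fold. Fzd1, Fzd2, Fzd4 and Fzd9 had changes of 0.11, -0.09, 0.12 and -0.30, with adjusted p from 0.271 to 0.622. Fzd9 was above background on only 2 of the 4 control arrays.

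**Figure D3:**
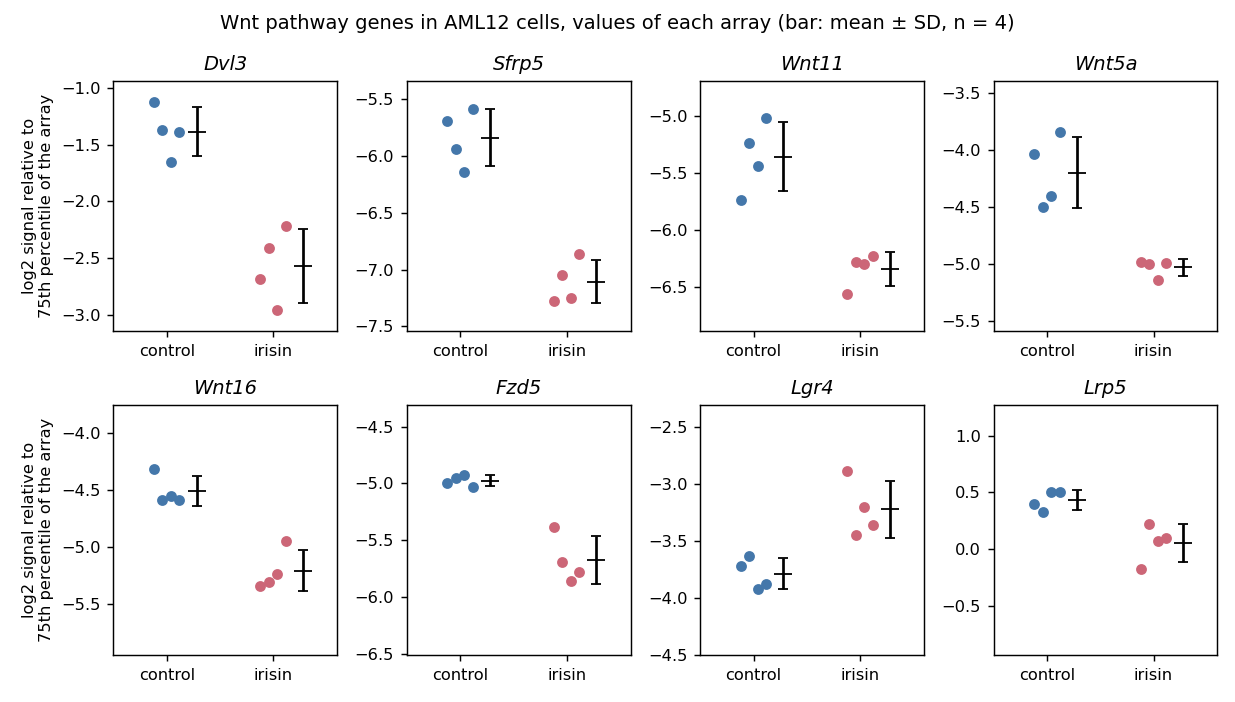
Level on each array (y axis, log2 signal relative to the 75th percentile; each panel spans the same range of log2 units) for 8 Wnt pathway genes, with control arrays in blue, irisin arrays in red and the mean ± SD of 4 arrays in black. The groups are apart in all 8 panels, with irisin higher only for Lgr4.

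Of the co-receptors, Lrp5 was lower by a small amount. It was at 0.40, 0.33, 0.50 and 0.50 in controls and at -0.18, 0.22, 0.08 and 0.10 with irisin. All 4 irisin arrays lay below the controls, and the change was -0.38 (SE 0.10, adjusted p = 0.0173), which is under 1.5-fold and so not called. Lrp5 is among the brighter probes, and its change was -0.38 under quantile normalization and cyclic loess and -0.34 after normexp background correction with quantile normalization. With spike-in scaling it was at 0.20 and without scaling at 0.36, each below the median of all genes under that setting. Lrp6 was at 0.68, 0.36, -0.18 and 0.79 and at 0.27, 0.68, 0.41 and 0.62. The arrays overlapped widely and the change was 0.08 (SE 0.19, adjusted p = 0.813), with a 95% interval of -0.35 to 0.51. The other tested Lrp6 probe was at -0.19 (adjusted p = 0.257).

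The highest change of any tested member belonged to Lgr4, a receptor for R-spondins that is broadly present in liver. It was at -3.72, -3.63, -3.92 and -3.88 in controls and at -2.88, -3.45, -3.20 and -3.36 with irisin. All irisin arrays were higher, and the change of 0.56 (SE 0.13, adjusted p = 0.0077) was 1.48-fold, just under the 1.5-fold limit. Lgr4 passed that limit under quantile normalization (0.71, adjusted p = 0.00512) and cyclic loess (0.74), and when control replicate 1 or 2 or irisin replicate 2 or 4 was left out. After normexp background correction it was at -0.04 with 75th percentile scaling and at 0.29 with quantile normalization. The ligase Rnf43 was at 2.00, 2.16, 2.25 and 2.40 and at 2.10, 2.21, 1.96 and 2.08, overlapping, with a change of -0.11 (SE 0.10, adjusted p = 0.486). Its partner Znrf3 was at -4.02, -4.01, -3.97 and -4.02 and at -4.45, -4.05, -4.21 and -4.12. The Znrf3 groups did not overlap, but the test was not passed, with a change of -0.20 (SE 0.10, adjusted p = 0.168).

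Dvl3 was below 0 under every setting run. Dishevelled proteins pass the signal from Frizzled to the destruction complex. Dvl3 was at -1.12, -1.38, -1.66 and -1.39 on the control arrays and at -2.69, -2.41, -2.96 and -2.22 on the irisin arrays. The groups were well apart, and Dvl3 fell by 1.18 on the log2 scale, or 2.27-fold (SE 0.16, adjusted p = 0.000481). It was at -1.16 under quantile normalization, -1.13 under cyclic loess, -0.75 after normexp with quantile normalization and -0.61 after spike-in scaling, with adjusted p of 0.00293, 0.00337, 0.00429 and 0.0328. Without scaling between arrays it was at -0.44, under 1.5-fold, and after normexp with all spots at -0.43 (adjusted p = 0.648). Leaving out any 1 array gave values between -1.30 and -1.05. Dvl1 and Dvl2 had changes of 0.06 and -0.04, with 95% intervals of -0.24 to 0.36 and -0.25 to 0.18. Each Dishevelled gene was measured by 1 probe.

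Sfrp5, the only tested member of the secreted antagonists, had the largest change of the tested members under 75th percentile scaling. It was at -5.70, -5.94, -6.14 and -5.59 in controls and at -7.27, -7.04, -7.25 and -6.87 with irisin. The groups did not overlap, and Sfrp5 fell by 1.27 on the log2 scale, or 2.41-fold (SE 0.14, adjusted p = 0.000159). Its probe lay in the dimmest class of tested probes. The change was -0.71 under quantile normalization (adjusted p = 0.00466), -0.57 after normexp background correction with 75th percentile scaling and -0.03 after normexp with quantile normalization (adjusted p = 0.607).

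Beta-catenin and its destruction complex showed 0 calls among 5 tested genes with limma, beside 10.2% of all tested genes called lower and 0.531% higher. The methods' test also gave 0, beside 9.41% lower and 0.335% higher. Among 5 genes, 0 calls cannot be told apart from these shares. At an unadjusted p under 0.05, 1 of them, Axin2, was lower, beside 23.6% of all tested genes. Ctnnb1, which encodes beta-catenin, was at 5.48, 5.12, 5.35 and 5.36 in controls and at 5.29, 5.37, 5.25 and 5.24 with irisin. These arrays overlapped, and the change was -0.04 (SE 0.09, adjusted p = 0.825), with a 95% interval of -0.25 to 0.17. The kinase gene Gsk3b was at 1.14, 0.84, 0.37 and 0.94 and at 0.94, 0.98, 0.57 and 0.78, a change of -0.01 (SE 0.16, adjusted p = 0.988), and its other tested probes were at 0.11 and -0.12. The scaffold gene Axin1 was at -0.21, -0.08, -0.15 and -0.49 and at -0.23, -0.04, -0.36 and -0.41, also overlapping, a change of -0.02 (SE 0.12, adjusted p = 0.922). For Ctnnb1, Axin1 and Gsk3b both a rise and a fall of 1.5-fold lay outside the interval, the widest of which was -0.36 to 0.35 for Gsk3b. Apc was at -0.14 (adjusted p = 0.358). Axin2 is both a scaffold and a feedback target of beta-catenin. It was at -5.23, -5.20, -4.86 and -4.82 and at -5.57, -5.28, -5.53 and -5.65, all irisin arrays below all controls, with a change of -0.48 (SE 0.12, adjusted p = 0.0146), under 1.5-fold. Under quantile normalization Axin2 was at -0.12 (adjusted p = 0.563), and its other probe was above background on no array.

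Of the TCF and LEF factors, Tcf7l2, the main one in hepatocytes, was at -2.69, -2.73, -2.48 and -2.33 in controls and at -3.12, -2.67, -2.93 and -2.67 with irisin. The groups overlapped, and the change was -0.29 (SE 0.13, adjusted p = 0.139). Its other tested probes were at -0.32 and -0.21. Tcf7 and Tcf7l1 were at 0.03 and -0.12, with adjusted p of 0.884 and 0.606. The other tested Tcf7 probe, above background on 2 of 4 control arrays, was at 0.57 (adjusted p = 0.104). It passed both thresholds as higher under quantile normalization (1.12, adjusted p = 0.0204) and cyclic loess (1.09, adjusted p = 0.0191), and was at -0.41 after normexp with 75th percentile scaling, so no direction is given for it.

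**Figure D4:**
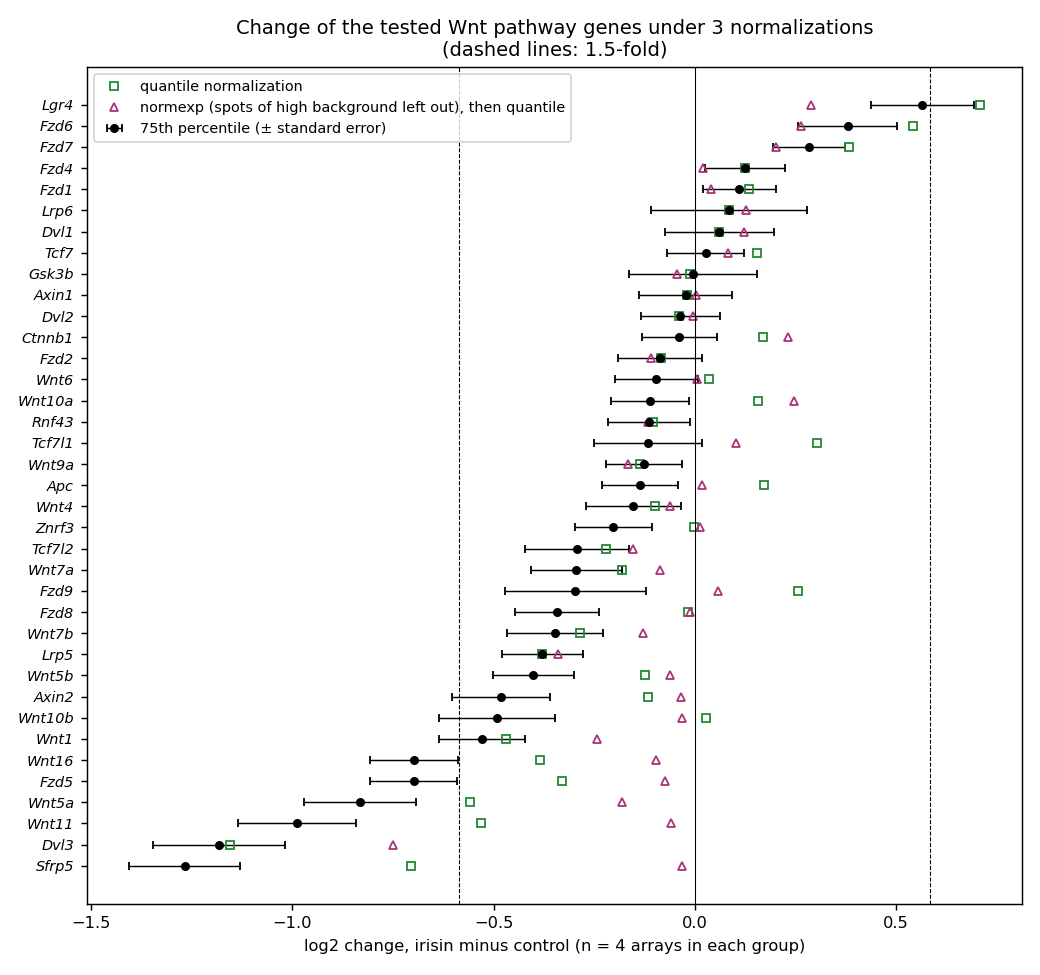
Change with irisin (x axis, log2, n = 4 arrays in each group) of each of the 37 tested Wnt pathway genes under 3 ways of normalizing the arrays; black points are 75th percentile scaling with standard errors. The 6 members called lower with 75th percentile scaling stay below 0 under all 3, with Dvl3 at -0.75 and Sfrp5 at -0.03 under normexp and quantile normalization.

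The wider pathway was followed in 7 further lists with 137 genes on the array, 99 of them tested. Of these 2 were called higher (2.02%) and 8 lower (8.08%), beside 0.531% and 10.2% of all tested genes. Quantile normalization gave 5 higher and 5 lower, beside 2.00% and 3.82% of all tested genes. Cyclic loess gave 5 higher and 3 lower, beside 2.14% and 3.41%. Among secreted modulators 1 of 7 tested was called lower, Dkkl1 at -0.91. Among other Wnt receptors and planar polarity genes, 1 of 9 was called higher and 2 lower. Ror1, a receptor for Wnt5a, rose by 0.64 (adjusted p = 0.00545), while Ptk7 and the cadherin Celsr2 fell by 0.85 and 0.97. Under quantile normalization Dkkl1 and Celsr2 were called and Ptk7 was not. By limma 0 of 23 tested cytoplasmic regulators and 0 of 15 nuclear partners of beta-catenin were called. At an unadjusted p under 0.05 the regulators held 1 higher and 4 lower, and the partners 2 higher and 5 lower. The shares of all tested genes at that p were 5.94% higher and 23.6% lower. The normexp settings took Ror1 to -0.15 with 75th percentile scaling, where the median of all tested genes was -0.10, and to 0.29 with quantile normalization. Its direction thus differed between settings, and the cause was not tested.

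Of 25 tested beta-catenin target genes outside the members, Myc was called higher and Ascl2, Ephb2, Msx1 and Msx2 lower. Of all tested genes 0.531% were called higher and 10.2% lower. Myc, a growth-promoting transcription factor, was at 2.45, 2.38, 2.45 and 2.65 in controls and at 3.10, 3.10, 3.16 and 3.11 with irisin. The irisin arrays lay close together above all controls, and Myc rose by 0.63 (SE 0.08, adjusted p = 0.000362). It was at 0.67 under quantile normalization and at 0.76 after normexp with quantile normalization. The 4 genes called lower were at -0.82 for Ascl2, -0.70 for Ephb2, -0.65 for Msx1 and -0.88 for Msx2, and under quantile normalization Ephb2 and Msx2 were called and Ascl2 and Msx1 were not. Ccnd1, which encodes cyclin D1, was at 6.37, 6.24, 6.18 and 5.99 and at 6.14, 6.38, 5.97 and 6.12, overlapping, with a change of -0.04 (SE 0.11, adjusted p = 0.834).

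Of 12 tested pericentral liver genes 1 was called lower, and of 8 periportal genes 0 were called. Of all tested genes 10.2% were called lower and 0.531% higher. At an unadjusted p under 0.05 the pericentral list held 5 lower and 2 higher, and the periportal list 1 higher. The shares of all tested genes at that p were 23.6% lower and 5.94% higher. The called gene was Rhbg, an ammonium transporter, at -5.12, -5.27, -5.08 and -5.02 in controls and at -7.22, -6.51, -6.42 and -6.43 with irisin. The groups did not overlap and the change was -1.52 (SE 0.17, adjusted p = 0.000169), with 3 of the 4 irisin arrays above background. It was at -1.06 under quantile normalization and, after normexp with quantile normalization, at -0.18. Glul, the glutamine synthetase of pericentral hepatocytes, was at 3.15, 3.03, 3.24 and 3.06 and at 2.97, 3.04, 2.54 and 2.90. The groups overlapped, and the change was -0.26 (SE 0.12, adjusted p = 0.141). Cyp2e1, a pericentral cytochrome P450, was at -4.10, -4.31, -4.44 and -3.72 and at -4.84, -4.26, -4.49 and -4.54, with overlap and a change of -0.39 (SE 0.17, adjusted p = 0.125). Neither gene passed the test.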

How the data were processed

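Total RNA from 8 AML12 samples (4 control, 4 irisin) was labelled with Cy3 and hybridised to 1-colour arrays. The authors extracted the scans with Agilent Feature Extraction, version 12.0.3.1 per the file headers, which also give the array design as 026655, where the methods name another. The deposited intensity per spot (background-subtracted and error-modelled by that software) was used, with spots marked as outliers left out (at most 0.463% of spots on an array) and spots of a probe averaged. The authors also deposited a table of processed signal intensities. It matched the averaged spot intensities with outlier spots kept to within 0.0005%. Scaling it the same way served as an alternative, close to the one with outlier spots kept. The deposited marks for signal well above background set the filter.

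Intensities were taken as log2 minus the log2 75th percentile of the array. A probe entered the test if each of the 4 arrays of a group marked it as well above background. The change was fitted in limma 3.58.1 (lmFit, then eBayes, in R 4.3.3), with Benjamini-Hochberg adjustment over all tested probes. The probe of highest mean signal stood for its gene. Symbols came from accessions matched to RefSeq, for 28657 of 39429 probes (72.7%). The number of arrays limits the precision. Fzd10os fits the naming rule but had no matched probe. Values on every array are given for members that were called, had an unadjusted p under 0.05 or did not overlap, and for a list of core members whatever they did. The members, the lists and this rule were chosen with earlier results of these data known. Alternatives covered background correction, normalization, filters, probe summary, test, thresholds, the replicate number as a block and leaving out each array, and 2 normexp settings were added after seeing the data.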

Additional observations from a re-analysis of the deposited data

Results flagged for a closer look

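In 4 of 74 groups of 4 arrays, 1 array lay further from the others than Dixon's criterion allows, and chance flags about 1 group in 20. Fzd8 was at -4.41 on control replicate 2, with the other controls at -4.79 to -4.76. Wnt16 was at -4.31 on control replicate 1, with the other controls at -4.59 to -4.55. Wnt5a was at -5.14 on irisin replicate 3, with the others at -5.00 to -4.98, and Wnt7a was at -3.40 on control replicate 4, with the others at -3.01 to -2.93. Wnt16 and Wnt5a remained called lower without any 1 of the 8 arrays.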

How the results depend on the processing

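The 6 members called lower remained called under median scaling of detected probes, the deposited value table, the stricter filter, kept outlier spots, an intensity trend, the methods' test and each array left out. Under these settings 9.07% to 11.1% of all tested genes were called lower. The other settings moved the counts. Quantile normalization and cyclic loess each gave 1 member higher (Lgr4) and 2 lower. Normexp gave 0 lower and 0 genes of the other lists. Without spots of high background it gave 2 lower, and followed by quantile normalization it gave 1 lower and 1 gene of the other lists. Spike-in scaling gave 8 higher, 2 lower and 41 of the other lists, and no scaling 20 higher, 0 lower and 63. No filter gave 17 lower and 33, adjusted p alone 3 higher, 12 lower and 23, and at least 2-fold 2 lower and 1. The median of the members minus that of all genes was -0.07, and 0.23 under normexp and -0.22 without the spots of high background. On irisin replicates 2 and 4, normexp with all spots set the lowest 5% of signals at 359 and 454, against 54.0 to 59.0 on the other arrays and 65.5 and 58.6 without 11 and 5 such spots. Leaving out 1 array gave 0 to 1 higher, beside 0.293% to 1.03% of all tested genes, and 6 to 7 lower, beside 9.63% to 11.1%. The 1 higher was Lgr4, without control replicate 1 or 2 or irisin replicate 2 or 4. Wnt10b was added to those lower without control replicate 3, and Wnt1 without irisin replicate 2.

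Of the 37 tested members, the sign turned for 7 under quantile normalization, 9 under cyclic loess, 23 under spike-in scaling, 25 without scaling, 20 under normexp with all spots, 8 without spots of high background and 8 when that was followed by quantile normalization. The genes named here are those of them, and of the other lists, that were called in either setting. Under normexp with all spots they were Fzd5 (0.39), Sfrp5 (0.45), Wnt11 (0.41), Wnt16 (0.35), Wnt5a (0.29), Ascl2 (0.51), Celsr2 (0.28), Dkkl1 (0.25), Ephb2 (0.050), Msx1 (0.35), Msx2 (0.16), Ptk7 (0.25) and Rhbg (0.32). Without scaling, which moves all genes up, they were Apc (0.60), Axin1 (0.72), Ctnnb1 (0.70), Dvl2 (0.70), Fzd2 (0.65), Fzd5 (0.039), Gsk3b (0.73), Rnf43 (0.62), Tcf7l1 (0.62), Wnt10a (0.63), Wnt16 (0.040), Wnt4 (0.59), Wnt6 (0.64), Wnt9a (0.61), Ccnd1 (0.69), Ephb2 (0.036) and Msx1 (0.084). Normexp without spots of high background turned the call of Ror1 (-0.15), and with quantile normalization that of Ascl2 (0.012). Apart from the shift that no scaling gives all genes and the spots behind normexp, the cause was not tested.

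The replicate numbers did not pair the arrays: deviations of same-numbered arrays correlated at 0.11, -0.35, -0.13 and 0.17. With the replicate number as a block 0 members were called higher and 6 lower, beside 0.531% and 10.3% of all tested genes. Of the other lists 10 genes were called, and the block left the counts for members and lists unchanged. Signal over background limits Sfrp5, Wnt11, Wnt5a, Wnt16 and Fzd5, whose probes are dim.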
